A study of Mus musculus with 32 samples.

Results

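Macrophages and tumour cells sorted from the same mouse gliomas were compared for how each changed between the Vehicle and the Endpoint stage of a trial of BLZ945, an inhibitor of the CSF-1 receptor. The quantity of interest is a contrast of contrasts: the Endpoint minus Vehicle change of a gene in the macrophage sort (TAM response), less the same change in the tumour-cell sort (TC response). It rests on 22 of the 32 libraries of the series, chosen by stage: a TAM and a TC library from each of 6 Endpoint mice (49823, 49825, 49830, 49831, 49843 and 49845) and 5 Vehicle mice (54359, 54363, 57098, 57682 and 64247). In every group, XFM mice (a strain name that the labels do not define) had received DF-1:PDGFB cells in the brain at 5 to 6 weeks of age. DF-1 is a line of chicken fibroblasts, here a carrier of the growth factor PDGFB. Dosing was daily from a tumour of 20 to 40 mm3 until symptoms or 26 weeks of age. The agent label reads BLZ945 in all 22 libraries, so Vehicle and Endpoint were taken from the stage. The source label calls the Vehicle tumours vehicle treated and the Endpoint tumours dormant. TAM are cells with CD11b and without Gr1, and TC are cells with PDGFRA, so each sort rests on surface markers and not on a lineage label.

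CSF-1R is the receptor tyrosine kinase through which CSF-1 and IL-34 keep macrophages and microglia alive, by way of the PI3K and ERK pathways. PDGFB acts on PDGFRA, the receptor of oligodendrocyte progenitors and of gliomas that resemble them, and uses the same pathways. ERK activity induces its own inhibitors, among them dual-specificity phosphatases and Sprouty proteins. MHC class II molecules, made by macrophages, dendritic cells and B cells, show peptides to helper T cells after cathepsins have cut the protein.

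**Figure D1:**
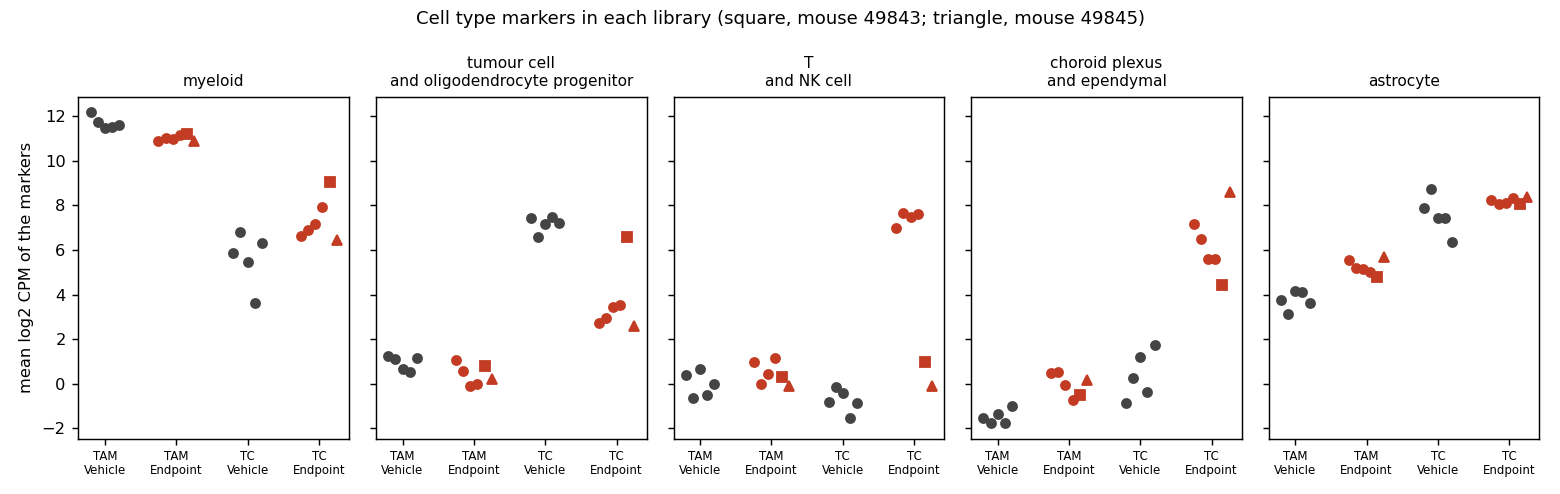
Mean log2 CPM of 5 lists of cell type markers (y axis) in each of the 22 libraries, by sort and stage (grey, Vehicle; red, Endpoint). TC Endpoint libraries of 4 mice sit at 6.99 to 7.67 for T and NK cell markers and those of mice 49843 and 49845 at 0.99 and -0.10; mouse 49843 alone sits near the Vehicle libraries for tumour cell markers.

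Before any gene is described, the libraries themselves need a word, since the PDGFRA sort of Endpoint tumours did not hold the same mixture of RNA as that of Vehicle tumours. Total counts were 25556830 to 30383148 in TAM Vehicle, 9543888 to 15789460 in TAM Endpoint, 13126801 to 22989777 in TC Vehicle and 4180176 to 14029216 in TC Endpoint libraries. Every Endpoint count was even, for a reason that is not given, so totals of the stages may not compare directly as depth. The summed level of 12 tumour cell and oligodendrocyte progenitor markers was 2196 to 7566 CPM (counts scaled to a library of fixed size) in TC Vehicle and 292 to 2229 CPM in TC Endpoint libraries. T and NK cell markers (12 genes) summed to 6.04 to 16.1 CPM in TC Vehicle and 16.2 to 5521 CPM in TC Endpoint, with the low end in mice 49843 and 49845. Choroid plexus and ependymal markers (12 genes) summed to 83.4 to 792 CPM in TC Vehicle and 7359 to 267173 CPM in TC Endpoint, and myeloid markers (16 genes) to 294 to 2596 CPM and 2195 to 12794 CPM. In the TAM sort, myeloid markers summed to 73019.5 to 124695 CPM in Vehicle and 50022 to 57432 CPM at Endpoint, tumour cell markers to 44.4 to 90.9 and 39.5 to 74.1 CPM, and choroid plexus markers to 5.13 to 15.1 and 74.5 to 235 CPM, with Ccdc153 and Tmem212 at 0 in all TAM libraries. None of the myeloid, tumour cell or T and NK cell markers was at 0 in all libraries of a group. These are bulk samples, so fewer cells of a type and less RNA per cell cannot be told apart.

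Pdgfra, whose protein was used for the TC sort, was measured at 1251, 367, 2336, 2993 and 1153 CPM in the Vehicle TC libraries, in the order of the mice above, which is kept throughout. At Endpoint it lay at 46.6 to 437 CPM with a median of 85.7, overlapping Vehicle only at its upper end, and it fell by 3.55 on the log2 scale (SE 0.66, edgeR adjusted p = 0.00262). In TAM it was at 3.41 to 9.86 CPM in Vehicle and 0.212 to 10.6 CPM at Endpoint.

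Across 15047 genes tested, the difference between the sorts passed an adjusted p of 0.05 for 3498 (23.2%), with 1265 higher (8.41%) and 2233 lower (14.8%) in the TAM response than in the TC response. The TAM response alone called 4549 genes (30.2%), 1503 higher (9.99%) and 3046 lower (20.2%). The TC response called 3916 (26%), 2132 higher (14.2%) and 1784 lower (11.9%). Median log2 responses over all genes were -0.14 in TAM and 0.04 in TC, and the median difference was -0.12. All values come from edgeR's quasi-likelihood test on the deposited counts, with Benjamini-Hochberg adjustment over the 15047 genes and each mouse as a block in the difference, and log2 changes stand beside their standard error (SE). The difference was fitted over all 22 libraries, and each response over the 11 libraries of its sort alone. A printed difference therefore need not equal the printed TAM response minus the printed TC response. For Fbn2 the responses were 4.75 in TAM and -2.7 in TC, and the difference was 9.13. Replicates are different mice. Per the labels' numbers, both libraries of a pair came from 1 mouse.

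From these 3 tests each gene fell into a class. Of the genes tested, 759 (5.04%) moved together in both sorts, 243 of them higher (1.61%) and 516 lower (3.43%), and for 107 of the 759 the size of the change also differed between sorts. Genes called in TAM, not in TC and in the difference numbered 1054 (7%), 358 higher (2.38%) and 696 lower (4.63%). The mirror class, called in TC alone, held 1385 genes (9.2%), 814 higher (5.41%) and 571 lower (3.79%). Opposite moves were called for 578 genes (3.84%): 478 lower in TAM and higher in TC (3.18%), and 100 higher in TAM and lower in TC (0.665%). Another 3348 genes (22.3%) were called in 1 sort without a called difference, so for them the sorts are not shown to differ. For 2 genes (0.0133%) opposite calls came without a called difference. For 374 (2.49%) the difference was called and neither sort's own test was. In all, 7126 genes (47.4%) were called in at least 1 sort, and 7547 (50.2%) in no test.

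**Figure D2:**
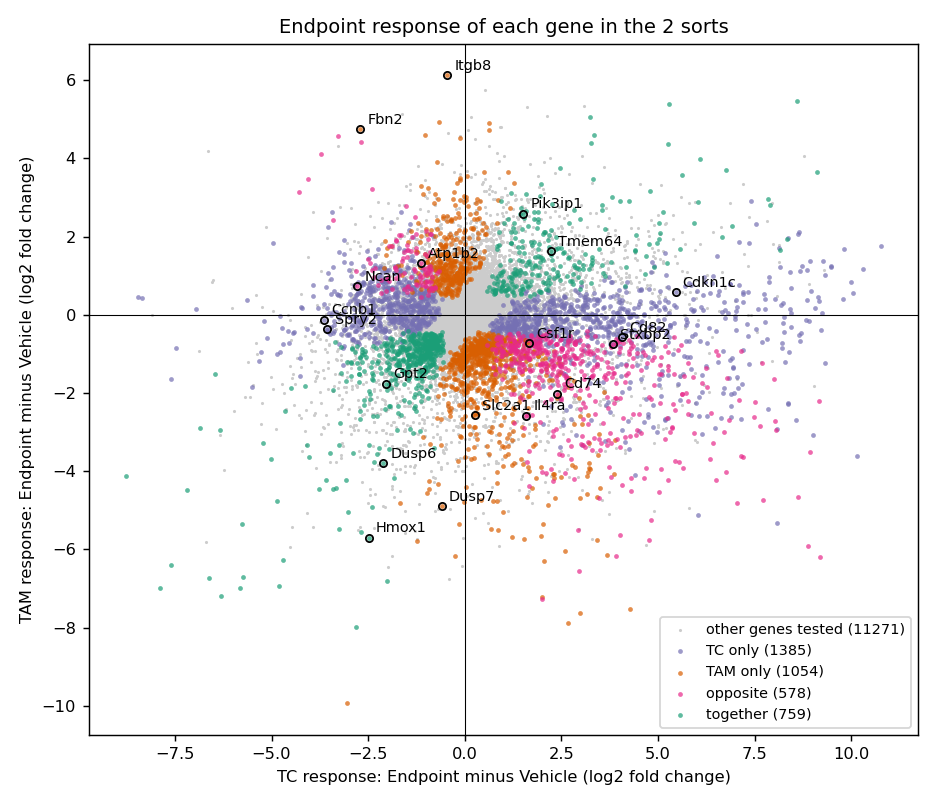
Log2 fold change between Endpoint and Vehicle in the TC sort (x axis) and the TAM sort (y axis) for the 15047 genes tested, coloured by class; circles mark genes named in the text. The lower right quadrant, lower in TAM and higher in TC, holds 478 of the 578 opposite genes.

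The classes were also set beside the sort in which their genes were higher at Rebound, the third stage of the trial, whose libraries did not enter these tests. Over all genes tested, 46.7% had a higher mean log2 CPM in Rebound TAM than in Rebound TC. Among genes lower in TAM and higher in TC it was 92.3%, and among those lower in TAM alone 86.9%. Among genes higher in TC alone it was 77.5%. The 100 genes that moved up in TAM and down in TC had 4% and those lower in TC alone 4.38%. For genes higher in TAM alone the share was 15.4%. Genes that moved together lay closer to the background, at 60.9% of those that rose and 32.9% of those that fell.

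**Figure D3:**
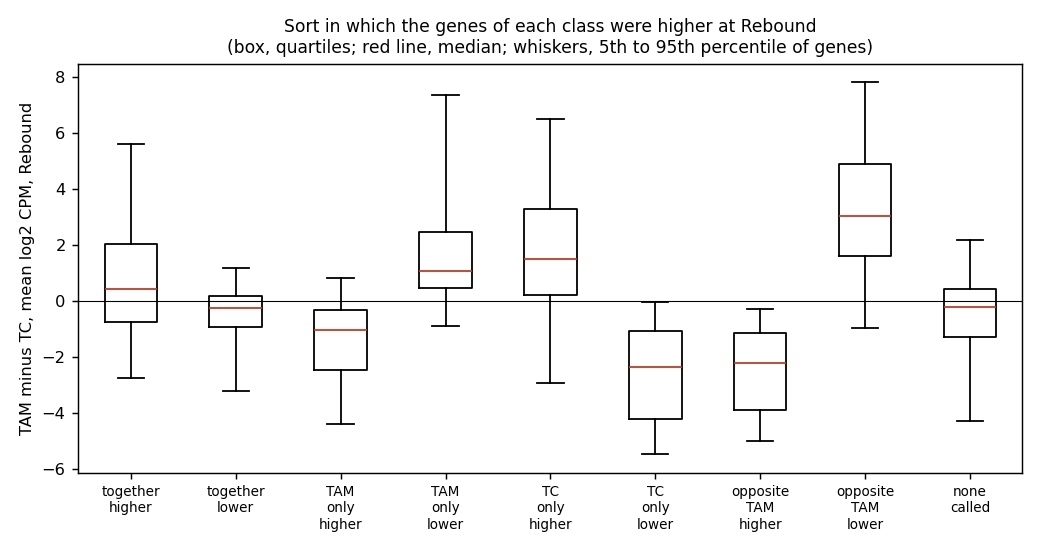
TAM minus TC difference in mean log2 CPM at Rebound (y axis) for the genes of each class (x axis); boxes are quartiles, red lines medians, and whiskers the 5th and 95th percentiles of genes. The median was 3.02 for genes lower in TAM and higher in TC and -2.37 for genes lower in TC alone.

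The 4 Endpoint mice with T and NK cell markers in TC were left out as a check chosen after seeing the data, which leaves 2 Endpoint against 5 Vehicle mice. That fit called few genes of any kind. Of 16138 tested, 180 were higher and 394 lower in TAM, and 296 higher and 80 lower in TC. Counts of list members from that fit, given below, are to be read beside these numbers. The difference was then called for 33 genes higher and 86 lower, of which 115 were among the 3498. Of the 478 genes lower in TAM and higher in TC, 5 stayed in that class, which then held 6. Over the 477 of the 478 that were still tested, the medians were -1.09 in TAM and 1.63 in TC, against -1.26 and 2.54 with all mice. For the genes higher in TC alone the TC median was 2.1 against 3.16, and for those lower in TC alone -1.39 against -1.81. These classes were chosen by direction in the main fit, which includes all mice kept here. Medians of the same sign are therefore in part built in.

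**Figure D4:**
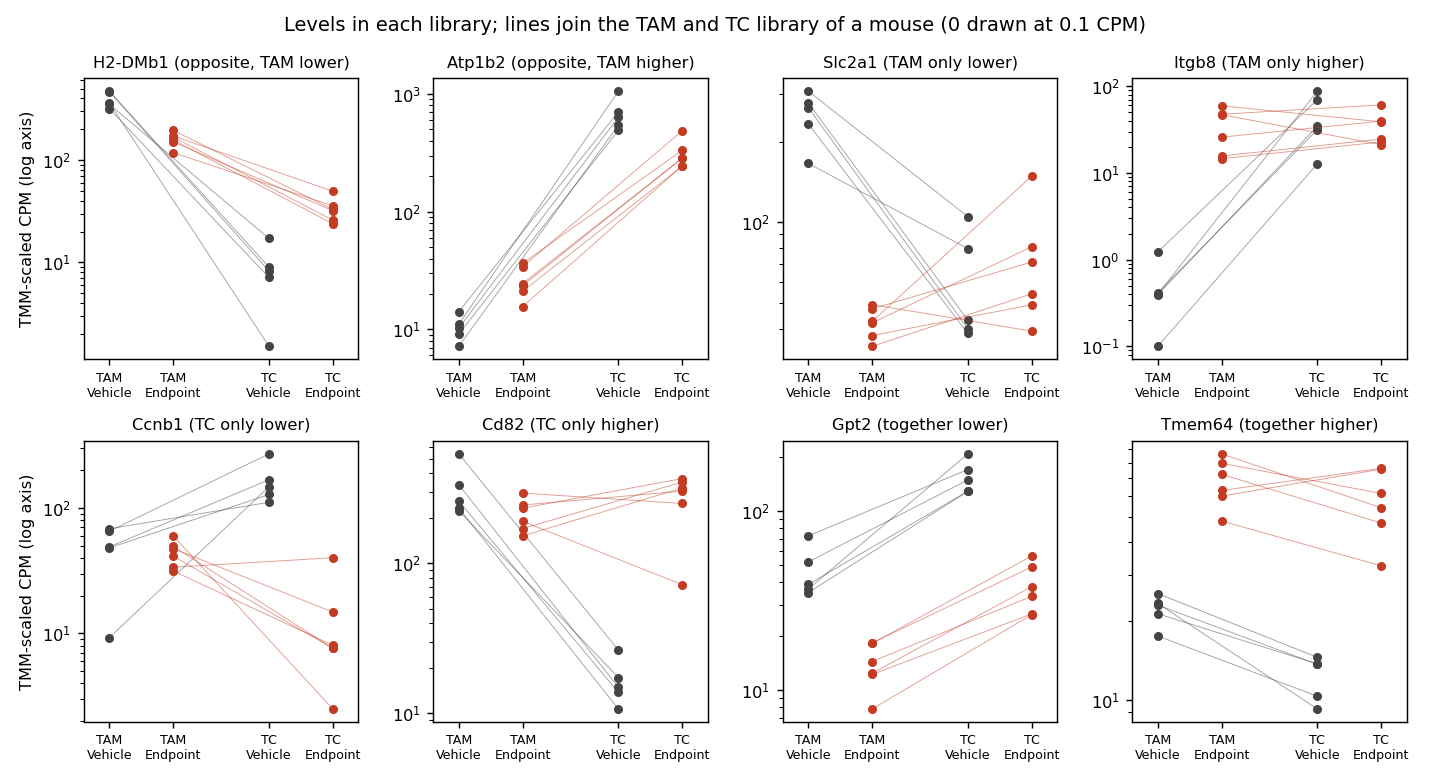
TMM-scaled CPM on a log axis for 1 gene of each class in each of the 22 libraries (grey, Vehicle; red, Endpoint); lines join the TAM and TC library of a mouse, and a value of 0 is drawn at 0.1 CPM. For H2-DMb1 the Endpoint points lie below Vehicle in TAM and above it in TC; for Gpt2 they lie below it in both.

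MHC class II genes moved apart between the sorts. Of 11 tested members of this list, 9 fell and none rose in TAM, 7 rose and none fell in TC, and the difference was lower for 10, where 14.8% of all genes were. Among all genes 20.2% fell in TAM and 14.2% rose in TC. The TC count of 7 became 3 without mouse 57098, 4 without mouse 49825 or 64247 and 1 with all 32 libraries in the fit. Median log2 responses were -1.98 in TAM and 1.96 in TC. The proximal promoters of 3 members are shown because class II genes are known for a shared promoter module that is bound as a unit, and these members fell together in TAM. Sequences are RefSeq's for GRCm38.p6, the 250 bases before the annotated start, 5′ to 3′ on the gene's strand: H2-Aa (chr17:34287824-34288073, minus strand), H2-Eb1 (chr17:34305617-34305866, plus strand) and H2-DMb1 (chr17:34152941-34153190, plus strand). Capitals mark ATTGG on either strand, the core of the Y box, and TGACGTCA, the cAMP response element, which the X2 box resembles.
H2-Aa: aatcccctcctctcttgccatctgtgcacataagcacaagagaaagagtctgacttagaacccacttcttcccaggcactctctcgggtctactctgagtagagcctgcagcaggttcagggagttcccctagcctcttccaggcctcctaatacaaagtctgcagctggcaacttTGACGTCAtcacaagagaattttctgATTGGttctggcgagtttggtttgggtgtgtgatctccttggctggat
H2-Eb1: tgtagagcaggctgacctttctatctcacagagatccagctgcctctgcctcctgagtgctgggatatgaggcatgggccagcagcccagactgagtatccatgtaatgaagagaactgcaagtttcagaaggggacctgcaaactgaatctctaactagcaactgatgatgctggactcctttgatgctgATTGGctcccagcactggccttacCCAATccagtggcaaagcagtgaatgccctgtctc
H2-DMb1: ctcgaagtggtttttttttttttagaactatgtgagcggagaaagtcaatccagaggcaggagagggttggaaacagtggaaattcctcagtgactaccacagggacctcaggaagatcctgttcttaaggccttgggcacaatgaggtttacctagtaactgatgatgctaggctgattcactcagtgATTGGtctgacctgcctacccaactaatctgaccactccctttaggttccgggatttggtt

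Counted from the start, with the base before it at -1, ATTGG begins at -48 in H2-Aa, -59 in H2-Eb1 and -61 in H2-DMb1, and H2-Eb1 holds another match at -35 on the other strand. Of the 8 tested class II genes with a promoter entry, 7 held ATTGG, against 37.5% of 27025 mouse genes with an entry of that length. TGACGTCA was in 1 of the 8, H2-Aa, and in 1.77% of all such genes. In H2-Aa it begins at -74 and does not overlap ATTGG. A match is a description of the sequence only.

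H2-DMb1 encodes a chain of the H2-DM molecule, which loads peptides onto class II. In the 5 Vehicle TAM libraries it was at 466, 350.0, 471, 360.1 and 317 CPM, and in the 6 Endpoint TAM libraries at 118 to 195 CPM with a median of 162. Its TC levels were 8.23, 17.1, 8.98, 1.51 and 7.11 CPM in Vehicle and 23.8 to 49.5 CPM with a median of 32.4 at Endpoint. All Endpoint values lay below all Vehicle values in TAM and above them in TC. The TAM response was -1.3, adjusted p = 4.49e-05, the TC response 1.96, adjusted p = 0.00908 and the difference -3.51, SE 0.50, adjusted p = 0.000501.

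Cd74, the invariant chain that guides class II molecules to the endosome, was at 9315, 5300.3, 14949, 14219 and 7579.5 CPM in Vehicle TAM and at 1838 to 3040.2 CPM with a median of 2586 in Endpoint TAM. The TC sort gave 132, 121, 168, 81.3 and 235 CPM in Vehicle and 160.0 to 2567 CPM with a median of 434 at Endpoint. The groups did not overlap in TAM and did in TC, where mouse 49825 gave the highest value, 2567 CPM; that library also held B cell markers at 6.2 mean log2 CPM, and the part of B cells in the result was not tested. The responses were -2.02 in TAM and 2.39 in TC (adjusted p = 2.47e-05 and 0.0145), and the difference was -3.74, SE 0.70, adjusted p = 0.00239. The chains that present the peptide also fell in TAM: H2-Ab1 had a TAM response of -3.8, adjusted p = 2.83e-07 and H2-Eb1 of -3.9, adjusted p = 5.67e-06, with TC responses of 1.5 and 1.63 that did not pass. H2-Aa was -4.03 in TAM and 2.01 in TC; its TC call (adjusted p = 0.045) was lost without any 1 of mice 49823, 49825, 49830, 49831, 54359, 54363, 57098, 57682 and 64247 (adjusted p = 0.0501 to 0.109) and under 3 other settings with all mice (0.0788 to 0.117), and without the 4 mice with T and NK cell markers its TC response was -0.084.

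Lysosomal genes also moved apart between the sorts. Of 36 lysosomal enzymes and proton pump subunits, 23 fell and 1 rose in TAM, where 20.2% of all genes fell. In TC 18 rose and 1 fell, where 14.2% of all genes rose. The count of 18 became 11 without mouse 54359 or 57098. Opposite moves were called for 10 of them, where 3.18% of all genes did so, and the medians were -0.83 in TAM and 1.17 in TC. Ctsd, the aspartic protease cathepsin D, was at 127872, 68513, 39084, 54043 and 69468 CPM in Vehicle TAM and 14668 to 34434 CPM with a median of 21327 in Endpoint TAM. In Vehicle TC it was at 1318, 1712, 844, 529 and 1602 CPM and in Endpoint TC at 2148 to 7648 CPM with a median of 2818. Neither sort's groups overlapped, and the direction was down in TAM (-1.68, adjusted p = 0.000367) and up in TC (1.67, adjusted p = 0.00957), with a difference of -3.26, SE 0.42, adjusted p = 0.000348. The cysteine protease Ctsb gave -1.64 in TAM and 0.96 in TC, and the carboxypeptidase Ctsa -1.28 and 1.19. The TC call of Ctsb was lost without any 1 of mice 49843, 54359, 57098, 57682 and 64247 (adjusted p = 0.0538 to 0.0769).

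Il4ra, the receptor chain shared by IL-4 and IL-13, was at 976, 763, 819.5, 1299 and 2419 CPM in Vehicle TAM and at 170.0 to 279 CPM with a median of 202 in Endpoint TAM. In TC its values were 18.4, 13.7, 23.5, 17.7 and 37.7 CPM in Vehicle and 13.4 to 107 CPM with a median of 74.3 at Endpoint. The TAM groups were far apart, while the TC groups overlapped at the low end. It fell by 2.58 on the log2 scale in TAM (adjusted p = 6.19e-06), its TC response was 1.6, adjusted p = 0.0207, and the difference was -3.9, SE 0.49, adjusted p = 0.000311. Its TC call was lost without mouse 54359 or 57682 (adjusted p = 0.0507 to 0.0547). Stat6, the transcription factor that carries the IL-4 signal, was -1.43 in TAM and 3.01 in TC, with a difference of -4.57, adjusted p = 0.000495. In the alternative activation list, which holds both, 13 of 23 genes fell and 1 rose in TAM, where 20.2% of all genes fell. Its TC counts, 4 higher and 3 lower, lay near the shares of all genes (14.2% and 11.9%), and the count of 4 became 2 without mouse 57682. With the 4 mice with T and NK cell markers left out, 8 of 23 were lower in TAM and 0 of 23 higher in TC.

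Leukocyte subunits of PI3K were among the genes with opposite moves. Pik3cd, the delta catalytic subunit, was at 442, 341, 327, 268 and 302 CPM in Vehicle TAM and 103 to 179 CPM with a median of 121 in Endpoint TAM. TC held 1.98, 19.7, 5.29, 3.92 and 4.44 CPM in Vehicle and 12.3 to 269 CPM with a median of 149 at Endpoint. The groups stood apart in TAM and overlapped in TC. In the 2 TC libraries with low T and NK cell markers, mice 49843 and 49845, it was at 45.1 and 12.3 CPM. The difference was -5.6, SE 0.81, adjusted p = 0.000571. Pik3cg, the gamma catalytic subunit, responded by -0.98 in TAM and 4.45 in TC, and its adaptor Pik3r5 by -1.24 and 4.7. Over all 26 PI3K, AKT and mTOR components the balance was different: 6 rose and 9 fell in TAM, and 6 rose and 1 fell in TC, where 9.99% and 20.2% of all genes did so in TAM and 14.2% and 11.9% in TC. The count of 9 became 4 with no replicate block. In the fit without those 4 mice none rose and 2 of 26 fell in TAM, and 1 of 26 rose in TC.

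The 5 genes with the smallest p of the difference among those lower in TAM and higher in TC, under the rule for named genes, were Cd7, Stxbp2, Angptl2, Ppp1r3b and Rab3il1. Stxbp2, a syntaxin-binding protein of granule release, was at 251 to 372 CPM in Vehicle TAM and 172 to 209.9 CPM at Endpoint, and at 2.89 to 11.3 and 67.1 to 127 CPM in TC, with a difference of -4.67, SE 0.35, adjusted p = 1.69e-05. Ppp1r3b, which targets protein phosphatase 1 to glycogen, was at 55 to 133 against 8.4 to 19.7 CPM in TAM and 1.04 to 5.61 against 13.5 to 50.6 CPM in TC. Angptl2, an angiopoietin-like secreted protein, and Rab3il1 had differences of -8.27 and -3.19; the TC call of Rab3il1 was lost without any 1 of mice 49830, 49831, 57098, 57682 and 64247 (adjusted p = 0.0505 to 0.07) and with no filter on low counts (0.0503). Cd7, a surface protein of T and NK cells, was at 0.788 to 10 CPM in Vehicle TAM and 0 to 0.436 CPM in Endpoint TAM, and reached 257 CPM in Endpoint TC. In the TC libraries of mice 49843 and 49845 it was at 0 and 0.178 CPM, and its TC response without the other 4 mice was -2.17 against 7.72 with them.

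Microglial and macrophage signatures followed the same division. Among all genes tested, 9.99% rose and 20.2% fell in TAM, and 14.2% rose and 11.9% fell in TC. Of 26 genes of homeostatic microglia, 13 fell and 1 rose in TAM, and 13 rose and 3 fell in TC, the last near its background. Of 26 genes of disease-associated microglia, 14 fell and 1 rose in TAM, and 11 rose and 1 fell in TC. The count of 11 became 4 to 7 without any 1 of mice 49830, 54359, 57098, 57682 and 64247 and 7 with all 32 libraries in the fit. Of 27 genes of monocyte-derived macrophages, 16 fell in TAM and 9 rose in TC, with none called the other way in either sort. That count of 9 became 3 with limma voom, and the 13 homeostatic genes lower in TAM became 8 with no replicate block. Ltc4s, leukotriene C4 synthase, gave -2.2 in TAM and 3.37 in TC (difference -5.5, adjusted p = 0.000478). The chemokine receptor Ccr2, which draws monocytes into tissue, gave -3.76 and 5.56 (difference -7.93, adjusted p = 0.00262). P2ry12, the ADP receptor of resting microglia, fell in TAM (-1.41, adjusted p = 0.000132) with no call in TC (0.78); its difference of -2.19, adjusted p = 0.0174 was lost without mouse 57098 (adjusted p = 0.0517). Apoe, the lipid carrier, gave -1.38, adjusted p = 0.0444 in TAM and 1.67, adjusted p = 0.047 in TC with a difference of -3.31, adjusted p = 0.00163. The TAM call of Apoe was lost without any 1 of mice 49823, 49825, 49830, 49831, 49845, 54359, 54363, 57682 and 64247 (adjusted p = 0.0527 to 0.157) and under 7 other settings with all mice (0.0688 to 0.138). Its TC call was lost without any 1 of mice 49823, 49825, 49830, 49831, 49843, 49845, 54359, 57098, 57682 and 64247 (adjusted p = 0.0532 to 0.105) and under 3 other settings with all mice (0.055 to 0.141). Myeloid markers in TC moved with all of these lists, at a mean log2 CPM of 3.62 to 6.79 in Vehicle and 6.45 to 9.07 at Endpoint, and their part in the TC rises was not tested. T and NK cell markers moved with them in 4 of the 6 mice. Without those 4 mice, the median TC response was 1.54 for MHC class II, 1.43 for lysosomal, 1.84 for homeostatic microglia, 1.77 for disease-associated microglia and -0.34 for monocyte-derived macrophage genes, the last with its sign turned. Genes then called higher in TC were 0 of 11, 8 of 36, 2 of 26, 3 of 26 and 0 of 27 in the same order, and called lower in TAM 5 of 11, 2 of 36, 5 of 26, 1 of 26 and 4 of 27.

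Interferon-stimulated genes, which code for antiviral proteins and their regulators, were 21 of 33 lower and none higher in TAM, and 9 higher and none lower in TC. Across all genes tested, 20.2% were lower in TAM and 14.2% higher in TC. The TAM count of 21 became 11 without mouse 57098, 12 without mouse 57682, 9 with no replicate block and 13 with no filter on low counts. The TC count of 9 became 4 without mouse 49825, 54359, 54363 or 57682, 5 without mouse 49831 or 64247, 4 with all 32 libraries in the fit, 5 with limma voom or no filter on low counts and 14 without mouse 57098. Median responses were -1.18 in TAM and 1.22 in TC. Lower in TAM and higher in TC were 7 of them, where 3.18% of all genes were, and among the 7 Ifi35 gave -0.91 in TAM and 2.08 in TC. Irf7, the factor that amplifies the interferon response, fell in TAM alone (-2.53, adjusted p = 0.000329), with 1.22 in TC and a difference of -3.46, adjusted p = 0.000657. Stat2 did likewise (-1.49, adjusted p = 0.00357; TC 0.49). Bst2, the surface protein tetherin, rose in TC (1.88, adjusted p = 0.00573) with -0.42 in TAM. In the NF-kB list 16 of 26 fell and 1 rose in TAM, while 7 rose and 5 fell in TC, where 14.2% of all genes rose and 11.9% fell. The count of 5 became 2 without mouse 54363, 3 without mouse 49823, 49825, 49831 or 64247 and 2 with limma voom. Ccl2, a monocyte chemokine, fell in both sorts (-4.23 in TAM and -3.06 in TC), whereas Icam1 (-1.46 and 2.13) and Nfkb1 (-0.92 and 1.49) moved in opposite directions. The inhibitor gene Nfkbia rose in TC alone (1.54, adjusted p = 0.00194). Without the 4 mice, 0 of 33 interferon-stimulated genes were higher in TC and 2 of 33 lower in TAM, with medians of -0.48 and -1.33, so the sign of the TC median turned. It turned for the NF-kB list as well, to -0.24 from 0.78, with 0 of 26 then higher and 0 of 26 lower in TC, and 12 of 26 lower in TAM.

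**Figure D5:**
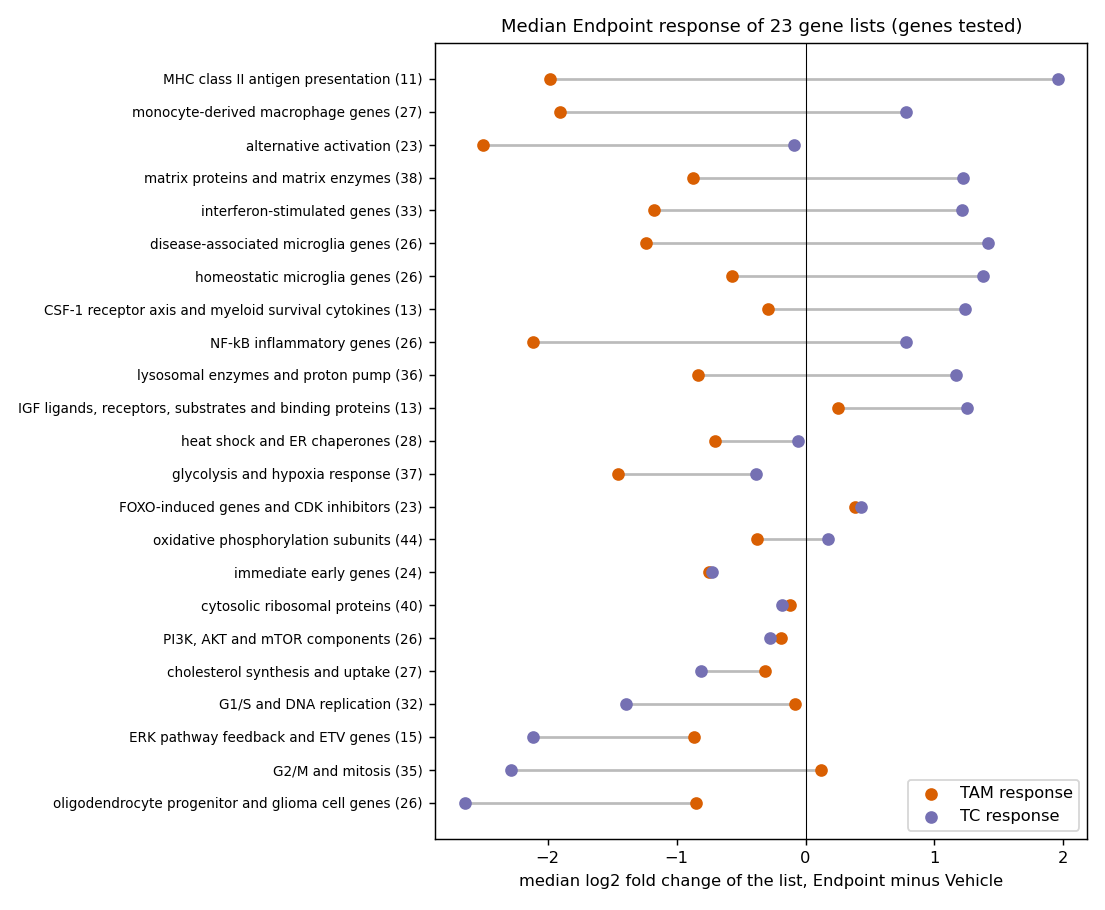
Median log2 fold change of the tested genes of 23 lists (y axis, with the number tested) in the TAM response (orange) and the TC response (purple). MHC class II lies at -1.98 and 1.96, and G2/M and mitosis at 0.12 and -2.29.

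Glycolysis genes fell in the macrophage sort, and few were called in the other. Of 37 genes of glycolysis and the hypoxia response, 28 fell and 1 rose in TAM, where 20.2% of all genes fell, while 3 rose and 4 fell in TC, below the shares of all genes. The count of 4 became 2 without mouse 64247 and 7 without mouse 49845. The difference was called for 14, all lower, where 14.8% of all genes were lower. The count of 14 became 9 without mouse 57682, and the medians were -1.46 in TAM and -0.38 in TC. Without the 4 mice, 10 of 37 were lower in TAM, with a median of -1.27, where that fit called 394 of 16138 genes lower. The promoters of Slc2a1 (chr4:119108495-119108744, plus strand) and Ldha (chr7:46845554-46845803, plus strand) are shown, since both genes belong to the list that hypoxia-inducible factors are known to induce. Capitals mark ACGTG on either strand, the core of the hypoxia response element, in the 250 bases before the start (RefSeq, GRCm38.p6).
Slc2a1: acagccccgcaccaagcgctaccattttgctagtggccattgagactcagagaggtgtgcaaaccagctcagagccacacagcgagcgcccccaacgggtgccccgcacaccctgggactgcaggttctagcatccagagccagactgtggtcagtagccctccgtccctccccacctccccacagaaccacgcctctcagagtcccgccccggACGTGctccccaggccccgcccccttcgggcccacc
Ldha: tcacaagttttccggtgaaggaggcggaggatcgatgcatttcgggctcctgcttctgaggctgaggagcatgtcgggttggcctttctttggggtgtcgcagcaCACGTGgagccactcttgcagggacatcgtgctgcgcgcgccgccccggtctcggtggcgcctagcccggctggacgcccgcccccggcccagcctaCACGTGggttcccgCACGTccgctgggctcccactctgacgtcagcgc

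Of the 33 tested members with a promoter entry, 20 held ACGTG in at least 1 entry, against 18.5% of 27025 mouse genes counted the same way. The match in Slc2a1 begins at -36, and Ldha holds 5 matches, of which those in CACGTG overlap in pairs on the 2 strands.

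Slc2a1, the glucose transporter GLUT1, was at 268, 279, 166, 233 and 308 CPM in Vehicle TAM and 34.4 to 49.3 CPM with a median of 42.4 in Endpoint TAM. The TC libraries held 40, 43.1, 79.7, 38.5 and 105 CPM in Vehicle and 39.2 to 148 CPM with a median of 62.5 at Endpoint. Every Endpoint TAM value lay under every Vehicle TAM value, and the TC groups overlapped. The TAM response was -2.57, SE 0.18, adjusted p = 2.65e-07, the TC response 0.27, adjusted p = 0.639 and the difference -2.81, SE 0.42, adjusted p = 0.000657. Pfkp, a phosphofructokinase, fell in TAM by 2.98 on the log2 scale with 0.62 in TC, and the hexokinase Hk1 by 2.16 with 0.17. Lactate dehydrogenase A (Ldha) fell in both, by 1.83 in TAM and 0.90 in TC. The TC call of Ldha was lost without any 1 of mice 49825, 49830, 49831 and 64247 (adjusted p = 0.0576 to 0.0946), and its difference (-0.97, adjusted p = 0.0343) without any 1 of mice 49823, 49830, 49831, 49845, 54359, 54363, 57682 and 64247 (adjusted p = 0.052 to 0.149) and under 6 other settings with all mice (0.052 to 0.14). Slc16a3, a lactate exporter, fell in TAM (-1.96) and in TC (-2.47), the latter call being lost without mouse 64247 (adjusted p = 0.0995).

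Among all 696 genes lower in TAM alone, the named rule gave Dusp7, Tgtp1, Myd88, Lgals1 and Numb. Dusp7, a phosphatase of ERK, was at 58.6, 59.2, 16.1, 35.6 and 28.6 CPM in Vehicle TAM and 0.726 to 1.72 CPM with a median of 1.39 in Endpoint TAM. TC libraries held 6.75 to 18.8 CPM in Vehicle and 5.7 to 13.9 CPM at Endpoint, overlapping. The TAM response was -4.89, adjusted p = 2.83e-07 and the difference -4.22, SE 0.42, adjusted p = 9.38e-05. Myd88, the adaptor of Toll-like receptors, was -1.89 in TAM and 0.71 in TC, galectin-1 (Lgals1) -3.68 and 0.16, and the Notch inhibitor Numb -2.1 and 0.82. For Tgtp1, an interferon-induced GTPase, the values were -3.92 and 3.22. Arginase 1 (Arg1), an enzyme of alternatively activated macrophages, was at 30.6, 18.8, 67.5, 236 and 147 CPM in Vehicle TAM and 0.726 to 2.09 CPM with a median of 1.3 in Endpoint TAM, while TC held 0.99 to 6.2 CPM in Vehicle and 0.713 to 3.96 CPM at Endpoint. Its difference was -5.52, SE 0.78, adjusted p = 0.000503. Fibronectin (Fn1) gave -5.49 in TAM and 0.69 in TC, and Myc -4.57 and -0.99.

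The receptor that the drug inhibits and its ligand fell in TAM. Csf1r was at 22307, 12340.5, 12063, 10069.8 and 10939.9 CPM in Vehicle TAM and 6934 to 9504 CPM with a median of 8045 in Endpoint TAM. In TC it was at 165, 231, 102, 25.4 and 134 CPM in Vehicle and 161 to 1153 CPM with a median of 251 at Endpoint, the highest being mouse 49843. The groups did not overlap in TAM and overlapped in TC. The TAM response was -0.72, SE 0.21, adjusted p = 0.0156, the TC response 1.66, adjusted p = 0.0562 and the difference -2.21, SE 0.62, adjusted p = 0.0213. The TAM call was lost without mouse 49823 or 49843 (adjusted p = 0.061 to 0.0614), with no replicate block (0.294) and with upper quartile scaling (0.0935), and the difference without mouse 57098 or 57682 (adjusted p = 0.0558 to 0.0631) and with all 32 libraries in the fit (0.063). Csf1, the ligand, was at 624, 227, 107, 112 and 164 CPM in Vehicle TAM and 18.9 to 42.8 CPM with a median of 21.8 in Endpoint TAM, with no overlap (-3.31, adjusted p = 0.00015), while TC held 15.2 to 35 and 6.32 to 31.5 CPM (-0.91, adjusted p = 0.16). Its difference of -1.82, adjusted p = 0.0349 was lost without any 1 of mice 49823, 49825, 49830, 49843, 54359, 54363 and 57682 (adjusted p = 0.0559 to 0.0845) and under 3 other settings with all mice (0.0554 to 0.0769). Il34, the other ligand, was called in no test (-0.85, adjusted p = 0.604 in TAM and -0.64, adjusted p = 0.469 in TC). Csf2rb2, a receptor chain for IL-3, fell in TAM by 2.07 on the log2 scale, with a TC response of 0.59 and a difference of -2.62, adjusted p = 0.00855.

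Growth factor genes of the IGF system, named in the title of the series, divided by member. Igf1, the ligand, was at 73.2, 15.1, 39.8, 94.6 and 56.4 CPM in Vehicle TAM and 5.52 to 112 CPM with a median of 8.32 in Endpoint TAM. TC held 1.51, 5.51, 0.924, 1.35 and 2.72 CPM in Vehicle and 3.2 to 21.8 CPM with a median of 7.92 at Endpoint. The stages overlapped in both sorts. In TAM the overlap came from mouse 49843 alone, at 112 CPM. The other Endpoint TAM values, 5.52 to 13.6 CPM, lay below the lowest Vehicle TAM value, 15.1 CPM. The TAM response did not pass (-1.12, adjusted p = 0.381), the TC response was 2.18, adjusted p = 0.0334 and the difference -4.1, SE 0.92, adjusted p = 0.00671. The TC call was lost without any 1 of mice 49830, 49843, 54359, 57098, 57682 and 64247 (adjusted p = 0.0598 to 0.0818). Igf1r, its receptor, was called in no test, with 8.04 to 15.7 and 9.76 to 25.3 CPM in Vehicle and Endpoint TAM, 17.5 to 50.7 and 21.1 to 34.2 CPM in TC, and a difference of 0.56, SE 0.48, adjusted p = 0.422. Insr, the insulin receptor, was at 15.6, 10.8, 12.6, 7.33 and 5.89 CPM in Vehicle TAM and 17.2 to 42.7 CPM with a median of 25.7 in Endpoint TAM, without overlap. In TC it lay at 14.2 to 33.1 CPM in Vehicle and 16.2 to 21.5 CPM at Endpoint. Its TAM response was 1.43, adjusted p = 0.00148 and its difference 1.78, SE 0.42, adjusted p = 0.00839. Of the binding proteins, Igfbp4 rose in TAM alone (1.96, adjusted p = 0.000246; TC 0.34) and Igfbp6 fell in TAM (-3.28) and rose in TC (3.53). Of the 13 genes of the IGF list, 3 rose and 1 fell in TAM, and 6 rose and 1 fell in TC, where 14.2% of all genes rose. In TAM 9.99% of all genes rose and 20.2% fell. Leaving out the 4 mice with T and NK cell markers, 1 of 13 rose in TC.

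Genes higher in TAM alone were led by the integrin chain Itgb8, which takes part in activating TGF-beta. It was at 0.394, 0, 1.23, 0.398 and 0.414 CPM in Vehicle TAM and 14.6 to 59.5 CPM with a median of 36.5 in Endpoint TAM. Its TC levels were 12.7 to 87.7 CPM in Vehicle and 21.2 to 61 CPM at Endpoint. The TAM groups were far apart and the TC groups overlapped, with a difference of 6.65, SE 0.58, adjusted p = 5.88e-05. Fbn2, a fibrillin of elastic fibres, rose in TAM, where it was at 1.28 to 5.38 CPM in Vehicle and 45.1 to 82.8 CPM at Endpoint (4.75, adjusted p = 4.12e-07), while in TC it was at 56.5, 46.5, 257, 235 and 87 CPM in Vehicle and 1.05 to 107 CPM with a median of 3.86 at Endpoint, the highest being mouse 49843. The TC response of Fbn2 did not pass (-2.7, adjusted p = 0.0769). Gpm6a, a membrane glycoprotein of neurons, and the atypical protein kinase Prkcz gave 2.49 and 3.5 in TAM, with -0.15 and -0.12 in TC, and the zinc finger gene Zfp365 3.02 and 0.04. In Endpoint TAM, Gpm6a at 17 to 65.8 CPM remained below its level of 409 to 2473 CPM in Endpoint TC, as did Zfp365 at 7.38 to 12 against 56.7 to 97.4 CPM. Astrocyte markers in TAM were at a mean log2 CPM of 3.11 to 4.14 in Vehicle and 4.78 to 5.66 at Endpoint, with 7 of 10 called higher, and summed to 1755 to 3225 and 1625 to 2964 CPM; neuron markers were at -0.31 to 0.79 and 1.07 to 2.29, with 5 of 11 called higher. Across all genes tested, 9.99% were called higher in TAM. The part of astrocytes and neurons in the TAM rises was not tested.

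Lipid and PI3K genes were also found in that class. The desaturase Scd1 gave 1.96 in TAM and 0.11 in TC (difference 1.69, adjusted p = 0.0112). Pik3r1, the main regulatory subunit of PI3K, rose in TAM, with overlap between 41.4 to 87.9 CPM in Vehicle and 77.4 to 131 CPM at Endpoint (0.92, adjusted p = 0.0039) and stood at 116 to 218 and 89.3 to 112 CPM in TC (-0.55), with a difference of 1.47, SE 0.24, adjusted p = 0.00106. Over 27 genes of cholesterol synthesis and uptake, however, 9 fell and 3 rose in TAM and 12 fell in TC, with 6 of them lower in both. The shares of all genes were 20.2% lower and 9.99% higher in TAM, 11.9% lower in TC and 3.43% lower in both. The TAM count of 9 became 5 without mouse 49823, 49830 or 49843 and 5 with no replicate block or upper quartile scaling. Without mouse 57098 the count of 3 higher in TAM became 8, and the TAM median turned from -0.31 to 0.08. In the fit without the 4 mice with T and NK cell markers, 0 of 27 were lower in TAM and 0 of 27 in TC. Sqle and Cyp51, enzymes of the same pathway, fell in TC alone (-1.72, adjusted p = 0.0161 and -1.5, adjusted p = 0.00192), and Mvd fell in both (-1.42 in TAM and -1.63 in TC).

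Cell-cycle genes fell in the tumour-cell sort. Of 35 genes of G2/M and mitosis, 28 fell and none rose in TC, where 11.9% of all genes fell, and 4 fell and 2 rose in TAM. For 30 of them the difference was called, all higher in TAM than in TC (8.41% of all genes). Of 32 genes of G1/S and DNA replication, 20 fell in TC and 1 in TAM, none rose, and 9 had a called difference, all higher. In TAM both lists lay below the 20.2% of all genes that fell. The count of 9 became 4 without mouse 49825 or 54359, 5 without mouse 64247, 16 without mouse 49830, 14 with TMM within each sort, 15 with upper quartile scaling and 20 with DESeq2. Median responses were 0.12 in TAM and -2.29 in TC for the first list and -0.08 in TAM and -1.39 in TC for the second, whose TAM median was 0.04 to 0.16 under the other scalings. Without the 4 mice with T and NK cell markers, 0 of 35 G2/M genes were lower in TC, with a median of -1.59, and 0 of 32 G1/S genes, with a median of -1.2. That fit called only 80 of 16138 genes lower in TC, so a count of 0 there does not show that the fall was absent. Without mouse 49830, 5 G1/S genes rose in TAM. The count of 4 G2/M genes lower in TAM became 0 to 2 without any 1 of mice 49823, 49825, 49830, 49831, 49843, 57098, 57682 and 64247, 0 to 2 with no replicate block, limma voom, RLE scaling, upper quartile scaling, TMM within each sort, no filter on low counts and all 32 libraries in the fit and 7 without mouse 54359. Ccnb1, the cyclin of mitotic entry, was at 9.26, 48, 68.2, 48.9 and 65.2 CPM in Vehicle TAM and 31.4 to 59.8 CPM with a median of 44.3 in Endpoint TAM. The TC sort gave 147, 128, 111, 168 and 269.6 CPM in Vehicle and 2.5 to 40.1 CPM with a median of 7.82 at Endpoint. The Endpoint TAM values lay within the Vehicle range, and the TC groups stood apart. The TC response was -3.63, SE 0.58, adjusted p = 0.00126 and the difference 4.1, SE 0.76, adjusted p = 0.00232. Ccna2, the cyclin of S phase and G2, and the centromere histone Cenpa gave TC responses of -2.65 and -2.34 and TAM responses of 0.77 and 0.74. Cenpf, a kinetochore protein, rose in TAM (1.53, adjusted p = 0.00252) with a TC response of -2.05, adjusted p = 0.0524. The primase subunit Prim1 fell in TC (-1.4, adjusted p = 0.00345) with 0.51 in TAM, and for the polymerase gene Pola1 the TC call (-1.11, adjusted p = 0.044) was lost without any 1 of mice 49823, 49825, 49830, 49831, 49845, 54359, 54363, 57098, 57682 and 64247 (adjusted p = 0.0571 to 0.0911), with RLE scaling (0.0559) and with upper quartile scaling (0.0502).

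Ccnd1, cyclin D1, was at 1634, 2460.0, 917, 952 and 1106 CPM in Vehicle TC and 20.1 to 247 CPM with a median of 22.6 in Endpoint TC. In TAM it was at 104, 163, 94.2, 75.5 and 128 CPM in Vehicle and 16.2 to 116 CPM with a median of 71.8 at Endpoint, overlapping. The highest Endpoint TC value, 247 CPM, belonged to mouse 49843, whose tumour cell markers were at 6.57 mean log2 CPM against 6.56 to 7.48 in Vehicle TC. The other 5 Endpoint TC libraries had tumour cell markers at 2.61 to 3.52. In the TC library of 49843 Ccnd1 lay below the lowest Vehicle value, 917 CPM, and Ccnb1 at 40.1 CPM below its lowest, 111 CPM. This is 1 library, and its summed tumour cell markers, 2229 CPM, lay near the lowest Vehicle TC sum, 2196 CPM. The part of tumour cell content in the falls was not tested. The TC response of Ccnd1 was -4.54, SE 0.77, adjusted p = 0.00175 and the difference 4.36, SE 0.54, adjusted p = 0.000272. Leaving out mouse 49843 raised the class lower in TC alone from 571 to 897 genes.

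The named genes of that class by the smallest p were Myef2, Inpp5f, Astn1, Spry2 and Ppp2r2b. Spry2, a Sprouty inhibitor of receptor tyrosine kinase signalling, was at 365, 331, 404, 530.2 and 332 CPM in Vehicle TC and 15.8 to 57.2 CPM with a median of 30 in Endpoint TC. TAM held 1.86 to 3.74 and 0.515 to 3.06 CPM in Vehicle and Endpoint. The TC groups were far apart, with a TC response of -3.55, SE 0.31, adjusted p = 6.5e-05 and a difference of 3.17, SE 0.38, adjusted p = 0.000254. Spry1 did likewise (-4.58 in TC and -0.42 in TAM). Inpp5f, a phosphoinositide phosphatase, gave -2.76 in TC and 0.58 in TAM, the RNA-binding gene Myef2 -2.12 and 0.19, astrotactin 1 (Astn1) -2.33 and 1.28, and the phosphatase subunit Ppp2r2b -2.06 and 0.65. The progenitor genes Nes, nestin, and Fabp7, a fatty acid binding protein, fell in TC alone (-3.46, adjusted p = 0.0158 and -2.69, adjusted p = 0.00278). Of the 26 genes of oligodendrocyte progenitors and glioma cells, 14 fell and none rose in TC, where 11.9% of all genes fell. In TAM 3 fell and 2 rose, below the shares of all genes, 20.2% and 9.99%. The count of 14 became 22 without mouse 49843 and 24 with limma voom. The median TC response of the list was -2.64, against -3.6 without mouse 49843. It was -1.43, with 0 of 26 lower, without the 4 mice with T and NK cell markers.

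In the class higher in TC alone, the named genes were Il2rb, Dennd1c, Cd82, B4galt1 and Tep1. Cd82, a tetraspanin, was at 26.4, 14.9, 13.8, 10.7 and 17.3 CPM in Vehicle TC and 72.1 to 368 CPM with a median of 311 in Endpoint TC. Vehicle TAM held 537, 334, 260.1, 234 and 224 CPM and Endpoint TAM 153 to 294 CPM with a median of 212. TC groups did not overlap, TAM groups did, and the Endpoint levels of the sorts overlapped each other. The difference was -4.5, SE 0.42, adjusted p = 9.38e-05. Il2rb, a chain of the IL-2 and IL-15 receptors found on T and NK cells, was at 0.313 to 1.4 CPM in Vehicle TC and 2.14 to 422 CPM in Endpoint TC, and at 0.266 to 2.95 and 0 to 1.16 CPM in TAM. In the TC libraries of mice 49843 and 49845, Il2rb was at 2.53 and 2.14 CPM, Cd82 at 72.1 and 349 CPM, Dennd1c, an exchange factor for Rab proteins, at 19.8 and 12.8 CPM and the galactosyltransferase B4galt1 at 44.3 and 76.6 CPM. The highest Vehicle TC values were 1.4, 26.4, 1.75 and 13.9 CPM in the same order, below both libraries for each gene. Other markers were high in these libraries. Myeloid markers summed to 12794 CPM in that of mouse 49843, and choroid plexus markers to 267173 CPM in that of mouse 49845. The part of any of these cell types in the rises was not tested. The telomerase-associated protein Tep1 had a difference of -3.11, adjusted p = 9.38e-05. Selplg, the P-selectin ligand of leukocytes, was 3.66 in TC and -0.05 in TAM.

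Cdkn1c, the cyclin-dependent kinase inhibitor p57, was low in TAM, at 0.363 to 2.76 and 1.06 to 2.62 CPM. The TC libraries held 2.4, 2.1, 1.97, 1.41 and 0.996 CPM in Vehicle and 31.2 to 233 CPM with a median of 49.7 at Endpoint. No Endpoint TC value overlapped with Vehicle. The TC response was 5.45, SE 0.62, adjusted p = 0.000252 and the difference -4.35, SE 0.59, adjusted p = 0.000425. The highest value, 233 CPM, came from mouse 49845, whose choroid plexus markers were also the highest, at 8.59 mean log2 CPM against -0.87 to 1.72 in Vehicle TC, and the part of those cells in the rise was not tested.

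The class higher in TAM and lower in TC, of 100 genes, was led by Atp1b2, Nap1l5, Tspan12, Rtn1 and Ptn. Atp1b2, the beta-2 subunit of the sodium-potassium pump of astrocytes, was at 10.3, 7.19, 14.2, 11.1 and 9.15 CPM in Vehicle TAM and 15.6 to 36.4 CPM with a median of 24 in Endpoint TAM. In TC it was at 634, 545, 705, 1057 and 493 CPM in Vehicle and 244 to 487 CPM with a median of 285 at Endpoint. Neither sort's groups overlapped, and at Endpoint every TC value was still above every TAM value. The TAM response was 1.32, adjusted p = 0.00111, the TC response -1.13, adjusted p = 0.00698 and the difference 2.42, SE 0.25, adjusted p = 0.000113. Ptn, the growth factor pleiotrophin, gave 1.66 in TAM and -1.48 in TC, the tetraspanin Tspan12 1.37 and -1.63, reticulon 1 (Rtn1) 1.2 and -2.32, and Nap1l5 1.89 and -1.79. Neurocan (Ncan), a proteoglycan of progenitors and brain matrix, was at 538 to 1606 against 72.2 to 277 CPM in TC and 5.53 to 9.68 against 8.59 to 17.7 CPM in TAM. Its TAM call (0.73, adjusted p = 0.0452) was lost without any 1 of mice 49823, 49825, 49845, 54359, 54363 and 64247 (adjusted p = 0.0643 to 0.105), with no replicate block (0.12) and with all 32 libraries in the fit (0.173). Brevican (Bcan) gave 2.08 and -1.26, with the TC call lost without any 1 of mice 49823, 49825, 49830, 49831, 54359 and 64247 (adjusted p = 0.0501 to 0.0864). Cdkn2c, the inhibitor p18, gave 1.14 in TAM and -0.93 in TC, with the TC call lost without any 1 of mice 49823, 49825, 49830, 49831, 49845, 54359, 57098, 57682 and 64247 (adjusted p = 0.0591 to 0.132) and under 3 other settings with all mice (0.0536 to 0.0591).

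Genes that fell together in both sorts included metabolic enzymes and ERK feedback genes. Gpt2, a mitochondrial alanine aminotransferase, was at 36.7, 35, 38.9, 52 and 72.6 CPM in Vehicle TAM and 7.84 to 18.4 CPM with a median of 13.4 in Endpoint TAM. Its TC levels were 208, 129, 129, 149 and 170.4 CPM in Vehicle and 26.4 to 56.1 CPM with a median of 35.6 at Endpoint. Both sorts stood apart by stage, which the rule for named genes required of genes that moved together. The responses were -1.76 and -2.04 (adjusted p = 8.95e-05 and 0.000427), and the difference was 0.32, SE 0.26, adjusted p = 0.412. The other 4 named by the rule were fatty acid synthase (Fasn; -1.55 in TAM and -1.73 in TC), the tRNA synthetase subunit Farsa (-1.59 and -1.44), the endocytic adaptor Hip1 (-2.16 and -2.44) and Def8 (-1.68 and -1.48). None of these 5 had a called difference. Of the differences, that of Fasn was 0.16, SE 0.37, adjusted p = 0.789.

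Of 15 tested genes of ERK feedback and the ETV factors, 7 fell in TAM and 12 in TC, none rose, and 6 fell in both, where 3.43% of all genes did. The shares of all genes that fell were 20.2% in TAM and 11.9% in TC. For 7 of the 15 the difference was called higher in TAM than in TC, and for 2 lower, with a median of 1.91. Among all genes 8.41% were higher and 14.8% lower. The count of 2 became 1 without mouse 49823 and 3 without mouse 49845. Without the 4 mice, 6 of 15 fell in TAM and 6 of 15 in TC, with medians of -1.51 and -2.75. The difference was then called for none of them, with a median of 1.37. Dusp6, the phosphatase that inactivates ERK, was at 1197, 1009, 1129, 1116 and 603 CPM in Vehicle TAM and 52.2 to 93.9 CPM with a median of 74 in Endpoint TAM. The TC sort gave 269, 202, 346, 296 and 179 CPM in Vehicle and 8.55 to 116 CPM with a median of 59.2 at Endpoint. No group overlapped within a sort. The responses were -3.8, SE 0.22, adjusted p = 1.88e-08 in TAM and -2.11, SE 0.47, adjusted p = 0.00559 in TC, and the difference was -1.39, SE 0.49, adjusted p = 0.0549, short of the threshold. Etv5, a transcription factor downstream of ERK, was at 345, 284, 226, 176 and 193 CPM in Vehicle TAM and 61.3 to 84.5 CPM with a median of 71 in Endpoint TAM. TC held 107, 111, 114, 93.9 and 106 CPM in Vehicle and 11.3 to 57.4 CPM with a median of 21.5 at Endpoint. Again no group overlapped, and the responses were -1.76 and -1.96 with a difference of 0.44, SE 0.39, adjusted p = 0.448. Ier3 fell further in TAM (-4.18) than in TC (-1.82), with a difference of -2.08, adjusted p = 0.0265 that was lost without any 1 of mice 49823, 49825, 49830, 49831, 57098, 57682 and 64247 (adjusted p = 0.0541 to 0.0938). For the immediate early factor Egr1 the order was the reverse (-1.83 in TAM and -4.13 in TC; difference 2.64, adjusted p = 0.00844). The Sprouty genes Spry1 and Spry2 fell in TC alone, as given above. Spry4 fell in both sorts (-4.11, adjusted p = 0.00351 in TAM and -8.75, adjusted p = 1.62e-06 in TC). Its mean in Vehicle TAM was low, at 2.27 CPM, and its difference was 4.77, SE 1.19, adjusted p = 0.0133.

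Hmox1, the heme-degrading enzyme, was at 2503, 3298, 1501, 1428 and 5866 CPM in Vehicle TAM and 40.5 to 103 CPM with a median of 45.9 in Endpoint TAM. The TC libraries held 83.1, 155, 49.2, 47.3 and 285 CPM in Vehicle and 6.58 to 36.2 CPM with a median of 22.9 at Endpoint. It fell in both sorts without overlap, and further in TAM, with a difference of -3.24, SE 0.40, adjusted p = 0.000265. The kinase inhibitor gene Cdkn1a, p21, fell by 2.57 in TAM and 1.64 in TC on the log2 scale (difference -0.90, adjusted p = 0.0844). The orphan receptor Nr4a1 gave -1.71 and -2.73. Cspg4, the NG2 proteoglycan of progenitors, fell in TC (-3.77) and also in TAM (-4.46), where it was at 11.9 to 54.1 CPM in Vehicle and 0.125 to 7.56 CPM at Endpoint.

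Genes that rose together were fewer in the main fit, 243 against 516 that fell. The numbers lay closer with upper quartile scaling (330 and 335), RLE scaling (297 and 373) and DESeq2 (442 and 530). With TMM within each sort they were 263 and 475. Tmem64, a membrane protein, was at 23.4, 25.5, 21.3, 23 and 17.6 CPM in Vehicle TAM and 48.1 to 86.6 CPM with a median of 67.7 in Endpoint TAM. In TC it was at 9.27, 14.6, 13.8, 13.7 and 10.4 CPM in Vehicle and 32.5 to 76.3 CPM with a median of 57.6 at Endpoint. Stages were apart in both sorts, as the rule for named genes required. The responses of Tmem64 were 1.62 and 2.23 and its difference -0.58, SE 0.28, adjusted p = 0.153. Pik3ip1, an inhibitor of PI3K, was at 10.2, 6.01, 5.54, 3.4 and 1.65 CPM in Vehicle TAM and 13.8 to 46.4 CPM with a median of 35.5 in Endpoint TAM. TC held 29, 14.2, 26, 20.6 and 17.6 CPM in Vehicle and 47.5 to 73.5 CPM with a median of 61.9 at Endpoint. It rose in both (2.59, adjusted p = 0.000362 in TAM and 1.51, adjusted p = 0.00131 in TC), without overlap, which the same rule required. The stress-induced gene Sesn1, sestrin 1, gave 1.08 and 1.26, and the ubiquitin ligase gene Fbxo32, atrogin-1, 1.34 and 1.95; their differences of -0.14, adjusted p = 0.713 and -0.44, adjusted p = 0.472 were not called. These 3 belong to the list of FOXO-induced genes and cyclin-dependent kinase inhibitors, of which 9 of 23 rose and 6 fell in TAM, 8 rose and 3 fell in TC, and 4 rose in both, where 1.61% of all genes did. The shares of all genes were 9.99% higher and 20.2% lower in TAM, and 14.2% and 11.9% in TC. Leaving out the 4 mice, 3 of 23 rose in TAM and 3 of 23 in TC. Txnip, another member, fell in TAM (-0.67, adjusted p = 0.0136) and rose in TC (3.97, adjusted p = 0.000712); its TAM call was lost without mouse 49843 or 57098 (adjusted p = 0.0588 to 0.0717) and under 3 other settings with all mice (0.0848 to 0.235). The named rule also gave A930001N09Rik (1.67 and 1.91), the leukocyte protein Lsp1 (1.21 and 4.89, difference -3.62, adjusted p = 0.00721) and the calcium-dependent kinase Camk1d (1.39 and 2.27). The difference of Camk1d, -1.06, adjusted p = 0.0456, was lost without any 1 of mice 49823, 49825, 49831, 49843, 49845, 54359, 57098, 57682 and 64247 (adjusted p = 0.0647 to 0.156) and under 6 other settings with all mice (0.0523 to 0.104).

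The share of calls in each direction depended on how the libraries were scaled. Of the called differences 36.2% were higher in TAM than in TC, against 50.1% with upper quartile scaling and 45.8% with TMM within each sort, and of the TAM calls 33% were higher, against 54.2% and 42.2%. Upper quartile scaling moved the median over all genes from -0.118 to 0.125 for the difference and from -0.138 to 0.0999 for TAM.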

How the data were processed

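Expression was measured by RNA sequencing (SMART-Seq, 2 reads of 50 bases). The authors deposited raw counts (whole numbers, not normalized) under 23337 gene symbols, as judged from the values; strand is not given, so antisense genes cannot be told apart. Per the submitters' processing notes STAR 2.3.0e and SAMtools were used with mm10; the counting program is not given in the sources used here. All non-zero counts of the Endpoint libraries were even, against 47.1 to 49.5% in Vehicle, so a run with Endpoint counts halved was made. It called 1348 differences higher and 2346 lower, and kept 3453 of the 3498 calls. Because even counts go with the Endpoint stage, effects of counting and of stage cannot be told apart. With edgeR 4.0.16 in R 4.3.3, genes were kept by filterByExpr over the 4 groups (15047) and scaled by TMM over the 22 libraries; CPM values carry that scaling. The difference was tested with glmQLFit (robust) and glmQLFTest with mouse, sort and the product of sort and stage as terms; the responses came from the 11 libraries of each sort. The tests were checked on simulated data. DESeq2 1.42.0, limma 3.58.1 and other alternatives are described in the closing section.

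Both libraries of a mouse come from 1 animal, so the mouse pairs them by origin; deviations from the group means correlated at 0.0113 to 0.352 within a mouse. For 49825, 49831 and 54363 the TAM library correlated better with the TC library of another mouse of the stage (0.0606, 0.0353 and 0.161). No pair of libraries in a group agreed within sampling noise (lowest chi-square per degree of freedom 21). In each of 8 classes the text names the 5 genes with the smallest p at a group mean of at least 10 CPM whose within-mouse TAM minus TC differences (for genes that moved together, whose levels in each sort) did not overlap between stages, then up to 4 genes of each of 23 lists, and 10 genes fixed by name; of the latter, Il34 and Igf1r were called in no test. Some genes given by the rule are not reported here. Marker levels are means of log2 CPM with a prior count of 2, over 13 lists. Members and lists were chosen with earlier results of these data known. Promoters are RefSeq's.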

Additional observations from a re-analysis of the deposited data

Results flagged for a closer look

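Among 30 genes and 13 marker lists, these are the groups with a library far from the others of its group (Dixon's test at its 95% critical value), followed by the genes whose response differed between the sorts in the test of the difference itself. A library stood apart in 21 of 172 groups tested. A chance rate of about 1 in 20 would need normal and independent values. Gene levels were untransformed CPM and the groups share mice, so the count cannot be set against that rate.

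Of the 21 groups, 10 were marked for a high library of mouse 49843. In Endpoint TC its CPM values, against the range of the other 5 mice, were 1153 against 161 to 484 for Csf1r, 107 against 1.05 to 9.28 for Fbn2, 247 against 20.1 to 31.8 for Ccnd1, 40.1 against 2.5 to 14.8 for Ccnb1, 277 against 72.2 to 135 for Ncan and 34.2 against 21.1 to 25.9 for Igf1r. Its tumour cell markers in TC were at 6.57 against 2.61 to 3.52 mean log2 CPM. In Endpoint TAM the same mouse had 42.8 against 18.9 to 23 CPM of Csf1, 103 against 40.5 to 58.3 CPM of Hmox1 and 112 against 5.52 to 13.6 CPM of Igf1.

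Mouse 49845 stood apart in Endpoint TC for Cdkn1c (233 against 31.2 to 69.8 CPM) and Atp1b2 (487 against 244 to 332 CPM), and mouse 49825 for Cd74 (2567 against 160.0 to 674 CPM). Among Vehicle libraries, mouse 54359 was high in TAM for Csf1r (22307 against 10069.8 to 12340.5 CPM) and Csf1 (624 against 107 to 227 CPM), mouse 54363 in TC for Pik3cd (19.7 against 1.98 to 5.29 CPM) and mouse 57098 in TC for Il2rb (1.4 against 0.313 to 0.578 CPM). Of the marker lists, neutrophil markers were low in TC of mouse 57682 (-2.27 against -0.02 to 0.75 mean log2 CPM) and dendritic cell markers in TAM of mouse 49823 (1.37 against 2.15 to 2.61), while erythroid markers were high in TAM of mouse 49823 (-1.06 against -2.01 to -1.79) and in TC of mouse 54363 (-0.065 against -2.28 to -1.76).

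The test of the difference was passed by 3498 genes in all (23.2%) and by 23 of the 30. Many of the 30 had been named for a small p in this same test. Their count therefore cannot be set against the share of all genes. On the log2 scale the difference was lower in TAM than in TC for Il4ra (-3.9), Cd74 (-3.74), H2-DMb1 (-3.51), Ctsd (-3.26), Pik3cd (-5.6), Il2rb (-9.24), Cdkn1c (-4.35), Cd82 (-4.5), Slc2a1 (-2.81), Csf1r (-2.21), Csf1 (-1.82), Arg1 (-5.52), Dusp7 (-4.22), Hmox1 (-3.24) and Igf1 (-4.1). It was higher for Itgb8 (6.65), Fbn2 (9.13), Insr (1.78), Ccnd1 (4.36), Ccnb1 (4.1), Spry2 (3.17), Ncan (3.53) and Atp1b2 (2.42).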

How the results depend on the processing

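The counts moved by over 1.5 times under these alternatives. Without the 4 Endpoint mice (49823, 49825, 49830 and 49831) with T and NK cell markers in TC, chosen after seeing the data, 33 differences were higher and 86 lower, with 180 and 394 TAM calls, 296 and 80 TC calls, and classes of 10 and 9 genes (together higher and lower), 4 and 21 (TAM alone), 45 and 5 (TC alone), and 0 and 6 (TAM higher and lower in opposite moves); that fit has 2 Endpoint mice. There edgeR called 119 differences in all, and 2987 at an unadjusted p under 0.05. DESeq2 gave 2176 higher differences, 442 genes higher together, 683 higher in TAM alone, 1222 higher in TC alone and 202 with opposite moves and TAM higher. Upper quartile scaling gave 2346 higher and 1982 lower TAM calls, 335 genes lower together, 657 higher and 424 lower in TAM alone, and 154 opposite with TAM higher. With no filter on low counts 448 genes were lower in TAM alone. With no replicate block, so without pairing the sorts by mouse, there were 973 higher and 2020 lower TAM calls and 1447 genes higher in TC alone, and the difference was called for 3784 genes, 3089 of them among the 3498. Called differences were 43.1% higher with DESeq2, 40.3% with RLE scaling and 44.9% without the filter, against 36.2%, and TAM calls 45.4% higher with DESeq2 and 42.7% with RLE scaling. Leaving out 1 mouse at a time gave 984 to 1858 higher and 1534 to 2283 lower differences, 1166 to 1864 and 2150 to 2975 TAM calls, 1590 to 2308 and 1328 to 2266 TC calls, 155 to 285 and 283 to 538 genes together higher and lower, 281 to 490 and 456 to 713 in TAM alone, 612 to 931 and 413 to 897 in TC alone, and 61 to 178 and 278 to 465 opposite with TAM higher and lower. Moves over 1.5 times came without mouse 64247 (together higher, 155), 49823 (together lower 283, lower in TAM alone 458, opposite 61 and 300), 49825 (opposite with TAM higher, 62), 49830 (together lower, 293), 49831 (together lower 342, opposite with TAM higher 61), 49843 (lower in TC alone 897, opposite with TAM higher 178), 57098 (together lower 318, opposite with TAM lower 315) and 57682 (together lower 325, lower in TAM alone 456, opposite with TAM lower 278). For these counts the cause was not tested.

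Of 276 called responses and differences of 119 named genes, 25 lost the call without at least 1 mouse, 31 under another alternative with all mice and 173 without the 4 mice; 3 reversed in that last setting (Spry4 difference -0.46, Cd7 TC response -2.17, H2-Aa TC response -0.084). With a prior count of 0.5 in place of 2, group medians of marker levels moved by more than the spread between libraries for tumour cell and oligodendrocyte progenitor in Endpoint TAM (-0.17), choroid plexus and ependymal in Vehicle TAM (-2.58), choroid plexus and ependymal in Endpoint TAM (-0.65), endothelial in Vehicle TAM (-0.31), endothelial in Endpoint TAM (-1.96), pericyte and fibroblast in Endpoint TAM (-1.7), T and NK cell in Endpoint TAM (-0.16), T and NK cell in Vehicle TC (-1.39), B cell in Endpoint TAM (-1.79), B cell in Vehicle TC (-2.78), erythroid in Vehicle TAM (-3.56), erythroid in Endpoint TAM (-3.29), erythroid in Vehicle TC (-3.48) and erythroid in Endpoint TC (-1.27). Scaling turned the sign of the TAM median of G1/S genes (-0.08 against 0.04 to 0.16), of ribosomal protein genes and of PI3K, AKT and mTOR components (-0.19 against -0.08 to 0.05), and of the median difference of immediate early and ribosomal protein genes. Total counts were lowest in TC Endpoint libraries (4180176 to 14029216, from counts that were all even), which limits genes near 0 there.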

Other observations

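Matrix genes, which encode collagens, proteoglycans and the enzymes that cut them, were 3 higher and 9 lower in TAM and 17 higher and 3 lower in TC of 38 tested, with median responses of -0.88 and 1.22. Of all genes, 9.99% were higher and 20.2% lower in TAM and 14.2% and 11.9% in TC, so the matrix counts in TAM lay near the background. With the 4 mice with T and NK cell markers left out, 1 of 38 were higher in TC and 3 of 38 lower in TAM. Lower in TAM and higher in TC were 3 of them, where 3.18% of all genes were. Among the 3, Sparc, a collagen-binding protein, gave -0.85 in TAM and 1.15 in TC, and Timp2, an inhibitor of metalloproteinases, -1.34 and 1.53. Tgfbi, a matrix protein made by monocyte-derived macrophages, gave -3.77 and 1.6, the TC call being lost without any 1 of mice 49825, 49830, 49831, 54359, 54363, 57098 and 57682 (adjusted p = 0.0662 to 0.113) and under 4 other settings with all mice (0.0549 to 0.091). Pericyte and fibroblast markers in TC were at a mean log2 CPM of 0.0046 to 2.6 in Vehicle and 2.66 to 3.71 at Endpoint, and their part in the matrix counts was not tested.

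Chaperones of the heat shock and endoplasmic reticulum responses were 1 higher and 14 lower in TAM and 2 higher and 4 lower in TC of 28 tested, with median responses of -0.70 and -0.06, where 20.2% of all genes were lower in TAM and 11.9% in TC. The count of 14 lower in TAM became 9 without mouse 49823 or 49830, and that of 4 lower in TC became 2 without mouse 49825, 49830, 49831, 57098 or 64247, 7 without mouse 49845 and 7 with DESeq2. Immediate early genes were 0 higher and 10 lower in TAM and 2 higher and 5 lower in TC of 24 tested, with median responses of -0.75 and -0.73. In the fit without the 4 mice, 2 of 28 chaperones and 3 of 24 immediate early genes were lower in TAM, and 0 of 28 and 1 of 24 in TC.

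Subunits of oxidative phosphorylation were 0 higher and 11 lower in TAM and 1 higher and 0 lower in TC of 44 tested, with median responses of -0.38 and 0.17. The 11 lower in TAM stand beside 20.2% of all genes, and the count became 4 to 7 without any 1 of mice 49823, 49830, 49843, 57098 and 57682 and 4 to 6 with no replicate block, DESeq2, RLE scaling, upper quartile scaling, TMM within each sort and no filter on low counts. The difference was called for 4, all lower, a smaller share than the 14.8% of all genes. This count became 0 without mouse 49823, 49830, 54359, 57098, 57682 or 64247, 1 without mouse 49825 or 49845, 0 with RLE scaling, upper quartile scaling, TMM within each sort or no filter on low counts, 7 with limma voom and 8 with all 32 libraries in the fit. Leaving out the 4 mice, 0 of 44 were lower in TAM. Cytosolic ribosomal proteins were 0 higher and 2 lower in TAM and 0 higher and 3 lower in TC of 40 tested, with median responses of -0.12 and -0.18, below the shares of all genes in each direction.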
